A study of Homo sapiens with 6 samples.

Results

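The enzymes described here make serine from glucose carbon and pass its one-carbon unit to folate. They were chosen by name as 10 genes: PHGDH, PSAT1 and PSPH of serine synthesis, SHMT1 and MTHFD1 of the cytosolic folate pathway, and SHMT2, MTHFD1L, MTHFD2, MTHFD2L and ALDH1L2 of the mitochondrial one. Every probe set of the array that lists one of these symbols and no other was taken. That gave 28 of 54613 probe sets, and all 10 genes were among the 19775 genes that have such a probe set. RNA came from MDA-MB-231, a line of invasive breast cancer cells that lack hormone receptors, on Affymetrix U133 Plus 2.0 arrays. The 3 shATAD3A arrays hold cells with stable knockdown of ATAD3A, an ATPase of the inner mitochondrial membrane, and the 3 shGFP arrays hold control cells with a hairpin against GFP. Both groups carried pLKO.1 lentiviral vectors, were selected in puromycin at 1.0 µg/ml for 2 weeks and were at passage 2. The labels give no clone, no number of hairpins or infections behind a group, and nothing on whether the 3 replicates of a group were grown separately. The p-values therefore cover the spread from array to array alone, and that spread may be technical.

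Serine synthesis runs in the cytosol. PHGDH oxidises the glycolytic intermediate phosphoglycerate, PSAT1 transfers an amino group to the product, and PSPH removes the phosphate to give serine. Serine hydroxymethyltransferase then splits serine into glycine and a one-carbon unit carried by tetrahydrofolate, in the cytosol as SHMT1 and in mitochondria as SHMT2. In mitochondria MTHFD2 or MTHFD2L oxidises that unit and MTHFD1L releases it as formate, while ALDH1L2 burns it to carbon dioxide. In the cytosol MTHFD1 joins the dehydrogenase, cyclohydrolase and synthetase reactions in a single protein and takes up the formate for purine and thymidylate synthesis. Several of the mitochondrial enzymes and those of serine synthesis are textbook targets of the stress transcription factor ATF4, and MTHFD2 is known for its high level in many tumours.

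Promoters of the cytosolic enzyme MTHFD1 and of MTHFD2 and MTHFD1L, which carry out reactions of the same kind in mitochondria, are shown because they hold matches to motifs of stress or growth regulators. They are RefSeq windows on GRCh38.p14, from 250 bases before to 50 bases after an annotated start, all on the plus strand. MTHFD2 lies at chr2:74198365-74198664, the MTHFD1L window at chr6:150866197-150866496 and MTHFD1 at chr14:64388103-64388402. Capitals mark matches to the motifs searched.
MTHFD2: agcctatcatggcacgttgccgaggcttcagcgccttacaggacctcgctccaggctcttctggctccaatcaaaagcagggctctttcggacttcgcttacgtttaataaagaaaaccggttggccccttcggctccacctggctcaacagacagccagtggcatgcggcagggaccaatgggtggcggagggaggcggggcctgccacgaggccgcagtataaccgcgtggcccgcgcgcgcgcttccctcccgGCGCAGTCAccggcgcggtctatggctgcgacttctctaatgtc
MTHFD1L: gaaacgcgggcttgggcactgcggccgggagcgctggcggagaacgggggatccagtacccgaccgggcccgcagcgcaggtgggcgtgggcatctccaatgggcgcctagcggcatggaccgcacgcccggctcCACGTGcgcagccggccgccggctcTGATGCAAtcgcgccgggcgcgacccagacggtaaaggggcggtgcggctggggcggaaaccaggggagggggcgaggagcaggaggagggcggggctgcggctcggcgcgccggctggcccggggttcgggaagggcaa
MTHFD1: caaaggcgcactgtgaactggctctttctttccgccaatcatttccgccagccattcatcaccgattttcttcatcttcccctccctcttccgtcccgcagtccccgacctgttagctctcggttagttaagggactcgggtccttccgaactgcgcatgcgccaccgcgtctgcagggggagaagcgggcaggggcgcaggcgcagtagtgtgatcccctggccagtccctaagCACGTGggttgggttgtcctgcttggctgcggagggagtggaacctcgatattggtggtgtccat

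The motifs were searched by their letters on both strands: TGATGNAA, the core of elements bound by ATF4 with C/EBP partners; TGACGTCA, the cyclic AMP response element; CACGTG, the E-box bound by MYC; and TGACNNNGC, the core of the antioxidant response element. Of all 35116 promoter windows in the table, 3.62% hold the first, 1.85% the second, 7.26% the third and 13.3% the fourth. The table held 11 windows for 7 of the 10 genes, with none for PSPH, SHMT2 and ALDH1L2. In the MTHFD1L window above, TGATGCAA begins 90 bases and CACGTG 115 bases before the start; the overlapping windows of 2 other MTHFD1L starts hold the same matches. MTHFD1 holds CACGTG from 15 bases before its start. In the MTHFD2 window the only match is GCGCAGTCA, the antioxidant core on the other strand, which begins 6 bases after the start base. One of the MTHFD2L windows also holds that core, as TGACGGTGC. None of the 4 motifs occurs in the windows of PHGDH, PSAT1 and SHMT1. These are matches of letters in short windows and were not tested for use in these cells.

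The deposited values are read as log2 expression values, and every change is shATAD3A minus shGFP on that scale. Errors are SD over 3 arrays per group or SE of the limma fit, and the number of arrays limits the precision. For the shifts between paralogs the SE was taken from the variances of both groups of 3 arrays, without limma. A gene took the values of its brightest probe set, by the mean of all arrays, and was called at a limma adjusted p of 0.05 (Benjamini-Hochberg, over all genes). Mean values formed a narrow peak of dim genes, here named the low mode, and a wide spread of brighter ones. The valley at 4.77 separates them, a boundary set after seeing the data. Detection calls were not used, so a reading in the low mode is dim and is not called absent. ATAD3A itself read 7.41, 7.03 and 7.39 in the shATAD3A arrays and 7.73, 7.78 and 7.80 in the shGFP arrays, a change of -0.49 ± 0.11 (SE; limma adjusted p = 0.0129). That reading comes from a single probe set of the x_at type, whose probes may also bind related transcripts. Of all genes, 19.7% were called higher and 13.9% lower. Among the 10202 genes above the low mode these shares were 36.5% and 25.4%, so a call by itself is common here. VIM, CD44, FN1, KRT8 and KRT18, expected in this line, were all above the low mode. ESR1 and PGR were in it, while ERBB2 was above it, at 8.31 in shATAD3A and 7.80 in shGFP arrays. All 4 leukocyte markers lay in the low mode, with CD14 and LYZ called lower, and their log2 values summed to 11.0 to 11.4 in shATAD3A and 12.7 to 13.4 in shGFP arrays. Of 6 fibroblast markers COL1A1 alone was above it, with 9.35 in shATAD3A and 8.35 in shGFP arrays. LUM was called higher within the low mode, and the 6 summed to 24.2 to 24.7 in shATAD3A and 22.6 to 23.1 in shGFP arrays. The keratins KRT8 and KRT18 rose by 1.42 and 1.00, and CD44 and FN1 changed by -0.34 and -0.35. The part of these shifts in the results below was not tested. In such bulk RNA, fewer cells of a type and less RNA per cell cannot be told apart.

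Within the pathway, 2 mitochondrial folate enzymes were higher and the last enzyme of serine synthesis was lower in knockdown cells. MTHFD2 and SHMT2 were 1.79-fold and 1.61-fold higher, and PSPH was 2.59 times lower. The other 7 genes were not called. That is 2 of 10 genes higher, beside 19.7% of all genes, and 1 of 10 lower, beside 13.9%. Of the 6 members above the low mode, 2 rose and 1 fell, beside the shares of 36.5% and 25.4% given above. By these counts the 10 genes were not called more often than genes in general.

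**Figure D1:**
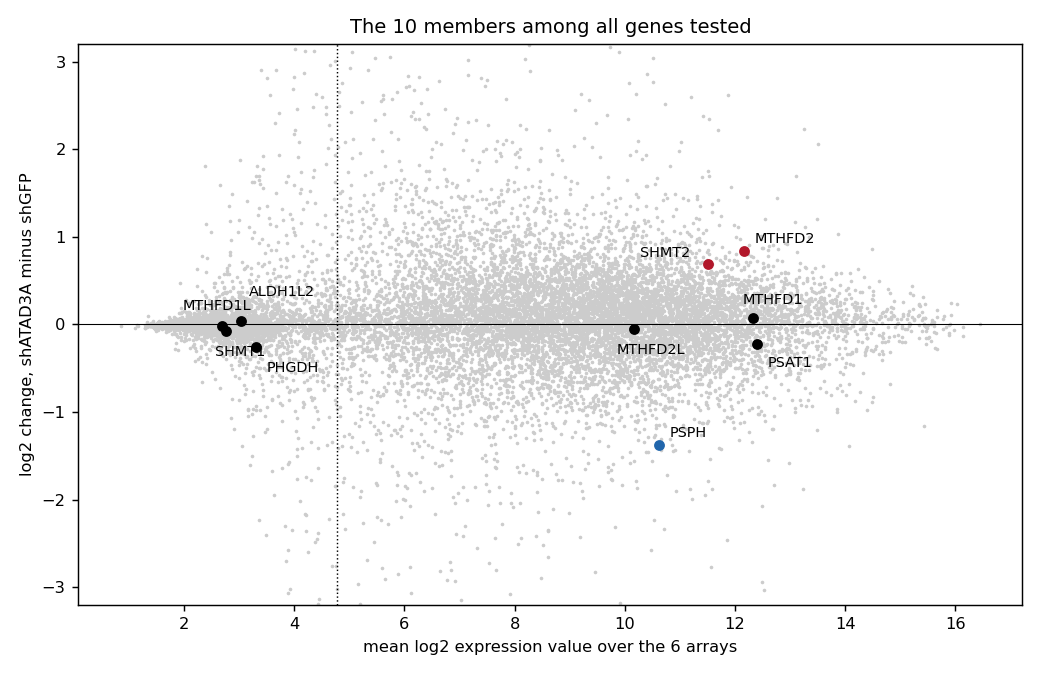
Log2 change of shATAD3A minus shGFP (vertical) against the mean log2 value over the 6 arrays (horizontal) for 19775 genes in grey, with the 10 enzymes marked in red where called higher, blue where called lower and black where not called. The dotted line is the low-mode boundary of 4.77, and 88 genes beyond 3.2 either way are not drawn; PSPH lies at -1.37, below most genes of its level, and MTHFD2 and SHMT2 lie at 0.84 and 0.69.

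PSPH, the phosphatase that completes serine synthesis, had the largest change of the 10 genes. It read 9.85, 9.97 and 9.97 in shATAD3A arrays, against 11.24, 11.36 and 11.31 in shGFP arrays. Every knockdown array lay more than 1.2 log2 units below every control array. The change was -1.37 ± 0.049 (SE; limma adjusted p = 1.02e-05). A separate PSPH probe set gave 9.66, 9.30 and 9.40 in shATAD3A arrays and 10.38, 10.57 and 10.43 in shGFP arrays. It changed by -1.01 ± 0.10 (SE; limma adjusted p = 0.00112 over probe sets), so both bright probe sets fell without overlap. The remaining PSPH probe set was in the low mode, between 4.10 and 4.31, and was not called; averaged over all 3, the change was -0.81 (limma adjusted p = 3.32e-05). The 50 nearest genes above the low mode on the chromosome, 25 on either side, had a median change of -0.094, far smaller than that of PSPH. PSPH has a related pseudogene, and the annotation does not show whether the s_at probes also bind its transcripts.

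Of the steps before PSPH, PSAT1 alone had a bright reading of its own. PSAT1, the aminotransferase, read 12.37, 12.27 and 12.23 in shATAD3A arrays and 12.38, 12.56 and 12.59 in shGFP arrays. The groups were separate by a hair, since control replicate 1 lay next to the highest knockdown array. Its change was -0.22 ± 0.069 (SE; limma adjusted p = 0.0549), and -0.29 (limma adjusted p = 0.0112) without that control array. The dimmer PSAT1 probe set changed by -0.17 ± 0.10 (SE; limma adjusted p = 0.398 over probe sets), with overlapping groups. PSAT1 was called lower under 8 other settings and not called under 9, with a change below 0 in each, so its call turns on the processing.

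PHGDH, the entry enzyme, had only a dim reading of its own. Its single probe set lay in the low mode, with 3.28, 3.04 and 3.21 in shATAD3A arrays and 3.61, 3.26 and 3.42 in shGFP arrays (limma adjusted p = 0.13). A bright probe set that lists PHGDH together with MZT2A and MZT2B, genes of the microtubule-nucleating complex, read 11.86, 11.89 and 11.70 in shATAD3A and 11.41, 11.41 and 11.39 in shGFP arrays. It rose by 0.41 (limma adjusted p = 0.00307 over probe sets), but that signal cannot be given to PHGDH. Whether PHGDH changed is thus not shown by these arrays.

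MTHFD2, the mitochondrial dehydrogenase and cyclohydrolase, rose with a smaller SE than any of the other 5 members above the low mode had. It read 12.58, 12.55 and 12.61 in shATAD3A arrays, against 11.71, 11.74 and 11.77 in shGFP arrays. The lowest knockdown array stood well above the highest control array. The change was 0.84 ± 0.032 (SE; limma adjusted p = 1.30e-05), with a 95% interval of 0.76 to 0.92. Its other probe set, of the x_at type, lay in the low mode and was not called, at 0.49 ± 0.19 (SE; limma adjusted p = 0.162 over probe sets). The neighbouring genes above the low mode had a median change of 0.16.

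SHMT2, which splits serine into glycine and a one-carbon unit within mitochondria, was higher on all 3 of its probe sets. The brightest read 11.85, 11.91 and 11.82 in shATAD3A arrays, against 11.27, 11.14 and 11.10 in shGFP arrays. The groups were far apart, and the change was 0.69 ± 0.053 (SE; limma adjusted p = 0.000174). The second gave 10.76, 10.72 and 10.62 in shATAD3A arrays and 10.05, 10.11 and 9.95 in shGFP arrays, a change of 0.66 ± 0.057 (SE). The dimmest, which has none of the s_at or x_at marks, gave 8.41, 8.45 and 8.46 in shATAD3A arrays and 7.90, 7.86 and 7.79 in shGFP arrays, a change of 0.60 ± 0.037 (SE). Over probe sets the limma adjusted p of these 3 was between 0.000174 and 0.000601. The genes around SHMT2 also rose: its 50 neighbours above the low mode had a median change of 0.45. With that median subtracted, a setting chosen after seeing the data, SHMT2 rose by 0.24 (limma adjusted p = 0.0082), against 0.68 for MTHFD2 (limma adjusted p = 1.85e-05). The subtraction treats the neighbour median as free of error, and DNA copy number was not analysed here.

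MTHFD2L, the isozyme that carries out the same mitochondrial reactions as MTHFD2, showed no call on any of its 8 probe sets. The brightest read 10.20, 10.11 and 10.14 in shATAD3A arrays and 10.18, 10.16 and 10.27 in shGFP arrays. The groups overlapped, and the change was -0.051, with a 95% interval of -0.15 to 0.052 (limma adjusted p = 0.506). This interval holds no rise of the size seen for MTHFD2. The other MTHFD2L probe sets above the low mode changed by 0.078, -0.013 and -0.24, with limma adjusted p between 0.18 and 0.964 over probe sets. The last of these read 7.07, 7.07 and 6.79 in shATAD3A and 7.34, 7.22 and 7.10 in shGFP arrays, close together but without overlap. With the neighbour median of 0.087 removed, the brightest probe set was called lower, at -0.14 (limma adjusted p = 0.029).

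MTHFD1L, the mitochondrial formate-releasing synthetase, had only low-mode probe sets of its own, at 2.24 to 2.75 on all arrays. A pair of brighter probe sets lists MTHFD1L with LOC101928195 and LOC100996643, so they are not given to the gene alone. The brighter of them read 10.60, 10.65 and 10.62 in shATAD3A and 10.46, 10.53 and 10.51 in shGFP arrays. It rose by 0.12 (limma adjusted p = 0.0383 over probe sets), and the dimmer one by 0.40 (limma adjusted p = 0.0327). The rise of the brighter one was small beside that of MTHFD2. ALDH1L2, the mitochondrial dehydrogenase that turns the formyl unit into carbon dioxide, stayed in the low mode on its 3 probe sets, between 2.27 and 3.17 on all arrays. No change of ALDH1L2 was detectable at this signal.

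On the cytosolic side, MTHFD1 was bright and steady. It read 12.33, 12.34 and 12.42 in shATAD3A arrays and 12.30, 12.24 and 12.35 in shGFP arrays. The groups overlapped, with a change of 0.072 and a 95% interval of -0.034 to 0.18 (limma adjusted p = 0.316). Its other probe set was in the low mode.

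SHMT1, the cytosolic counterpart of SHMT2, had low-mode probe sets of its own, between 2.07 and 2.93. Probe sets that list SHMT1 with the microRNA gene MIR6778 were brighter. One read 9.43, 9.24 and 9.18 in shATAD3A arrays and 9.06, 9.11 and 8.98 in shGFP arrays. The other read 7.11, 7.54 and 7.59 in shATAD3A and 6.94, 6.98 and 6.62 in shGFP arrays. Both had higher values in knockdown without overlap, by 0.23 and 0.57, but neither passed the test (limma adjusted p = 0.0822 and 0.0589 over probe sets).

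**Figure D2:**
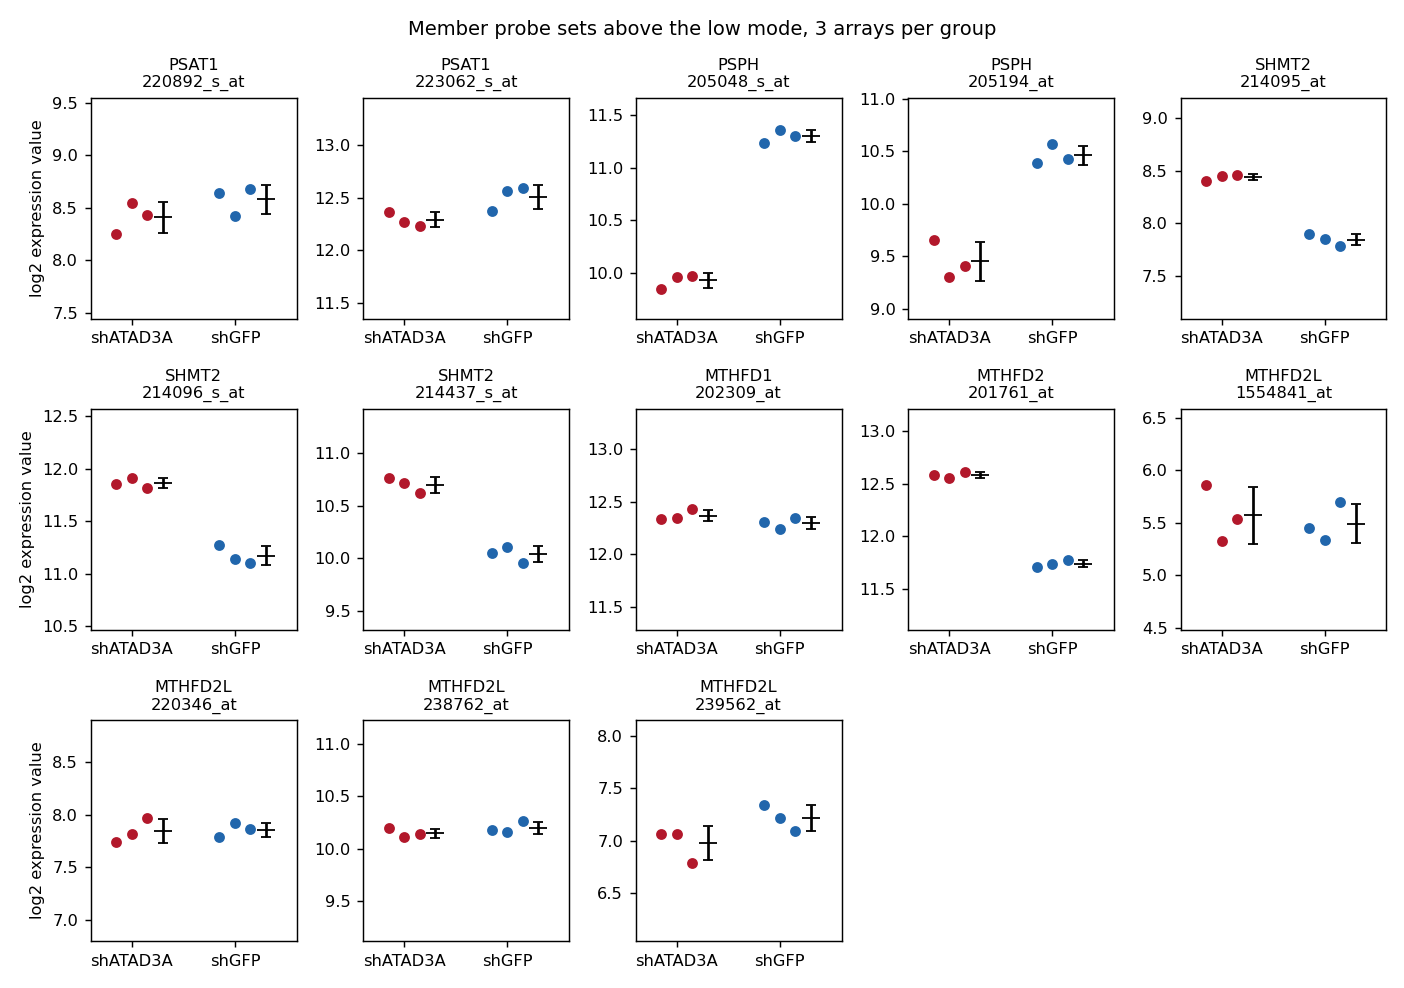
Log2 expression values of the 13 member probe sets above the low mode, 1 panel each, with shATAD3A arrays in red and shGFP arrays in blue and the mean ± SD in black (3 arrays per group). Every panel spans the same range of log2 units; the bright PSPH probe sets lie lower, and the SHMT2 probe sets and MTHFD2 higher, in shATAD3A arrays, while MTHFD1 and the brightest MTHFD2L probe set overlap between groups.

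Over probe sets, 4 of the 28 were called higher and 2 lower, beside 12.0% and 10.5% of all probe sets. All 6 of these were among the 13 above the low mode, where 28.2% and 24.1% of all probe sets were called. The other 15 lay in the low mode and none was called, with a smallest limma adjusted p of 0.162. By arm, the mitochondrial probe sets above the low mode had changes from -0.24 to 0.84 (8 probe sets, 3 genes). The cytosolic folate arm had a single such probe set, at 0.072. Serine synthesis had 4, from 2 genes (PSPH and PSAT1), all with changes below 0, from -1.37 to -0.17. Of these, 2 were called lower, both of PSPH. Since MTHFD1L, ALDH1L2 and SHMT1 had no probe set of their own above the low mode, the arms can be set against each other only through SHMT2, MTHFD2, MTHFD2L and MTHFD1.

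**Figure D3:**
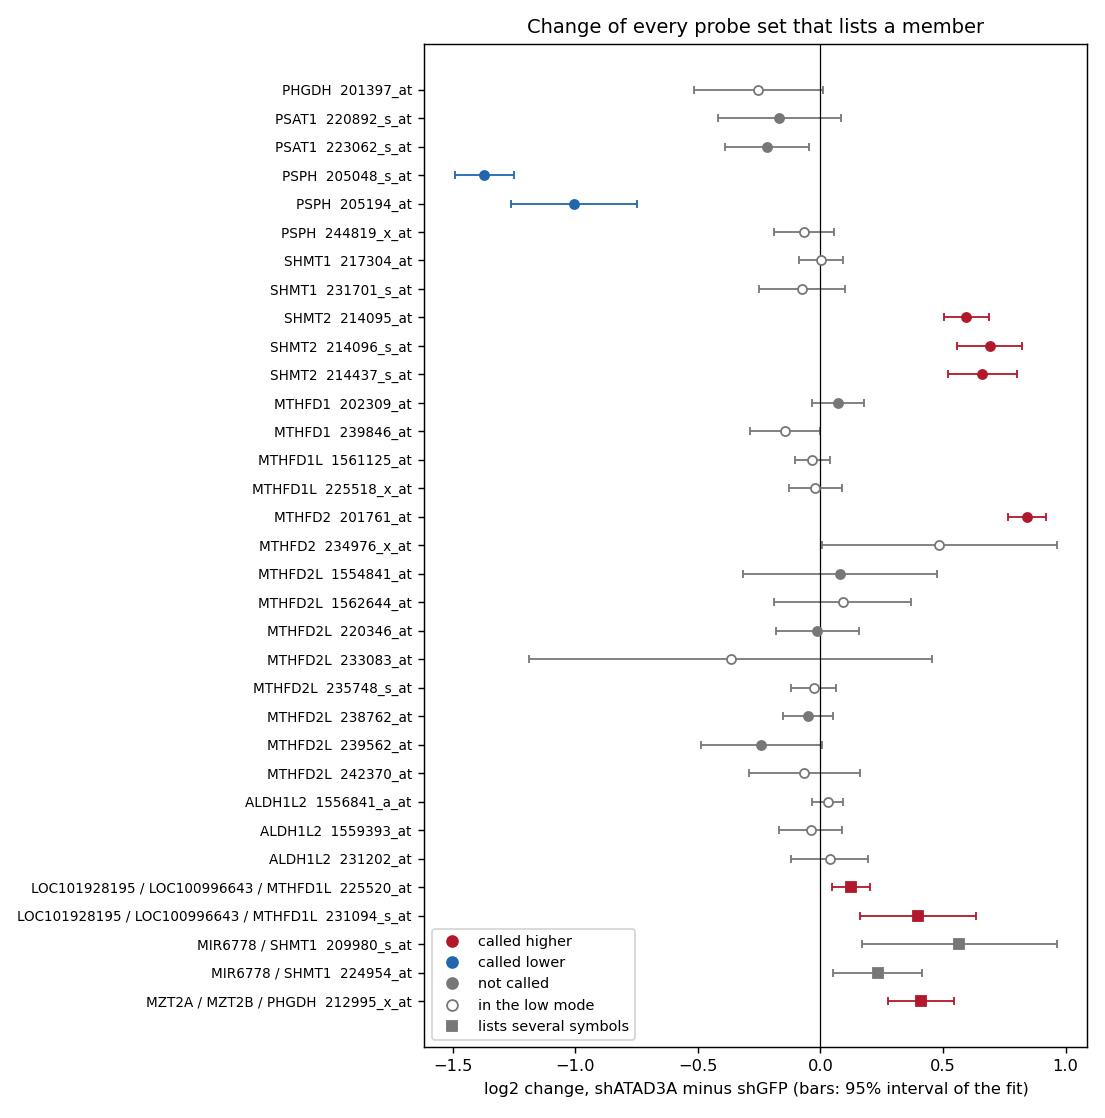
Log2 change of shATAD3A minus shGFP with its 95% interval from the fit over all probe sets, for the 28 member probe sets (circles) and 5 probe sets that list a member beside other symbols (squares). Open circles lie in the low mode; red and blue mark calls, and calls fall on SHMT2, MTHFD2, PSPH and 3 of the shared probe sets.

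Whether paralogs changed by different amounts was asked through the difference in log2 value between both genes of a pair on each array. Only the shift of that difference between groups has a meaning, since 2 probe sets do not share a scale. For MTHFD2 minus MTHFD2L it was 2.38, 2.44 and 2.48 in shATAD3A arrays, against 1.53, 1.58 and 1.51 in shGFP arrays. The shift was 0.89 ± 0.034 (SE), with all 3 knockdown arrays above all 3 control arrays. The exact two-sided permutation test gave p = 0.10, the smallest that 3 arrays against 3 allow, and 0.15 adjusted over the 3 pairs.

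For SHMT2 minus SHMT1 the shift was 0.76 ± 0.12 (SE; exact permutation p = 0.10, adjusted 0.15), but SHMT1 was in the low mode, so the shift mainly carries the rise of SHMT2. With the brighter probe set that lists SHMT1 and MIR6778, an alternative chosen after seeing the data, the difference was 2.43, 2.67 and 2.63 in shATAD3A arrays and 2.21, 2.02 and 2.13 in shGFP arrays. That shift was 0.46, with no overlap. For MTHFD1L minus MTHFD1 the shift was -0.093 ± 0.066 (SE; exact permutation p = 0.30, adjusted 0.30). It was 0.053 with the shared MTHFD1L probe set, so the direction of this pair is not settled. No pair could reach an adjusted p of 0.05 in this design.

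By root mean square difference over the 6 arrays, after centring each gene on its mean, the genes whose pattern was most like that of PSPH were PDP1, PJA2, ARMCX3, TMEM14B and ATRX. Their differences from PSPH were between 0.040 and 0.058 log2 units, and their changes between -1.29 and -1.39. These are distances over 6 arrays that fall into 2 groups, so the change between groups sets most of the likeness.

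The genes that surround these enzymes were taken from lists chosen with earlier results of these data known, and are described by counts. Among the other folate genes, 4 of 12 measured rose and 3 fell, with a median change of -0.049, beside -0.00084 over all genes. All of these calls were among the 8 genes above the low mode, where 36.5% of all genes were called higher and 25.4% lower. MTFMT, which formylates the initiator methionyl-tRNA of mitochondria with a folate one-carbon unit, read 8.25, 8.01 and 7.95 in shATAD3A arrays, against 7.48, 7.39 and 7.56 in shGFP arrays. It rose by 0.60 (limma adjusted p = 0.00284). TYMS, thymidylate synthase, changed by -0.49 (limma adjusted p = 0.00114), and GGH, the hydrolase that trims folate polyglutamates, by -0.56 (limma adjusted p = 0.000522). SLC25A32, the mitochondrial folate carrier, changed by -0.31 (limma adjusted p = 0.0034). So the carrier was lower while SHMT2 and MTHFD2 were higher. The neighbours of TYMS and SLC25A32 changed by -0.34 and -0.28 in the median, and neither call held with that removed (limma adjusted p = 0.0745 and 0.576). Another TYMS probe set changed by -0.59.

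Further folate genes moved less firmly. DHFR2, a dihydrofolate reductase, rose by 0.79, but another of its probe sets gave 0.078 (limma adjusted p = 0.857 over probe sets). SLC46A1, the proton-coupled folate transporter, rose by 0.39 (0.17 with averaged probe sets) and FPGS, which adds the polyglutamate tail, by 0.34 (limma adjusted p = 0.0134 and 0.0301). The FPGS call was lost without shGFP replicate 1 or 2 and without shATAD3A replicate 2 or 3, with adjusted p between 0.0914 and 0.0968, and both were lost with their neighbours removed (0.0947 for FPGS and 0.137 for SLC46A1). In glycine cleavage, 3 of 4 genes were above the low mode, where 36.5% of all genes were called higher and 25.4% lower. Of the 4 genes, 0 rose and 1 fell. That gene, DLD, the shared dihydrolipoamide dehydrogenase, changed by -0.19, while its other probe set rose by 0.49 (limma adjusted p = 0.00897 over probe sets), so DLD has no settled direction. GLDC, the glycine decarboxylase, was in the low mode.

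De novo purine synthesis, which consumes formyl units from this pathway, had more rises than falls. Of 12 measured genes 7 rose and 2 fell, and of the 11 above the low mode 7 rose and 2 fell, beside the 36.5% and 25.4% of genes above the low mode. Their median change was 0.31 over the measured genes and 0.27 above the low mode, against 0.065 for all genes above it. IMPDH1, which commits inosine monophosphate to guanine nucleotides, read 7.09, 7.20 and 7.23 in shATAD3A arrays, against 6.42, 6.14 and 6.25 in shGFP arrays. It rose by 0.91 (limma adjusted p = 0.000289).

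Other steps of purine synthesis were mixed. PFAS rose by 0.61 and the committing amidotransferase PPAT by 0.42, while the PPAT call was lost on its probe set without an s_at mark (limma adjusted p = 0.343). ATIC, which uses a formyl group at the end of the pathway, rose by 0.35 (limma adjusted p = 0.00161), a call lost with its neighbours removed (0.0581). GART, which uses one earlier, changed by -0.40 (limma adjusted p = 0.000583). Both formyl-using enzymes thus moved in opposite directions in the fit reported. Neither call held with the median of neighbours above the low mode removed. PRPS2 rose by 0.59 and PRPS1 changed by -0.25, both enzymes that make the phosphoribosyl donor. The median change of neighbours was 0.66 around PRPS2, -0.85 around PRPS1 and -0.38 around GART. With it removed PRPS2 and GART were near 0, at -0.074 and -0.018, and PRPS1 turned to 0.59 (limma adjusted p = 0.00015). Other GART probe sets that were called lower changed by -0.35 to -1.05. Further GART probe sets above the low mode were not called, at -0.58 and 0.064 (limma adjusted p = 0.129 and 0.859 over probe sets). Another PRPS1 probe set was not called, at -0.19.

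Downstream of homocysteine, CTH, the cystathionine lyase that releases cysteine, had one of the larger falls. It read 8.77, 8.89 and 8.90 in shATAD3A arrays, against 10.48, 10.51 and 10.60 in shGFP arrays, a change of -1.68 ± 0.050 (SE; limma adjusted p = 5.88e-06). CBS, the enzyme before it, which joins serine to homocysteine, was in the low mode. In the whole list of methionine cycle and transsulfuration, 4 of 19 genes rose and 3 fell, with a median of -0.0039. Of all genes, 19.7% were called higher and 13.9% lower. The calls of this list were all among its 13 genes above the low mode, where 36.5% of all genes were called higher and 25.4% lower. MAT2B and MAT2A, subunits of S-adenosylmethionine synthetase, changed by -1.11 and -0.34. The only other MAT2B probe set was in the low mode, and the other MAT2A probe set gave 0.25 (limma adjusted p = 0.0984 over probe sets). With averaged probe sets MAT2B changed by -0.55 and MAT2A was not called, at -0.043 (limma adjusted p = 0.572). NNMT, which uses S-adenosylmethionine to methylate nicotinamide, rose by 1.35 and the spermidine synthase SRM by 0.56. MTRR, which reactivates methionine synthase, rose by 0.42, and its neighbours had a median change of 0.46. The other MTRR probe set was not called, at 0.13 (limma adjusted p = 0.279 over probe sets), and with averaged probe sets MTRR rose by 0.27. AHCYL1 rose by 0.18, a call lost with the replicate number as a block (limma adjusted p = 0.0518) and without s_at and x_at probe sets (0.24).

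Genes that move or use serine and glycine rose in 6 of 18 cases and fell in 3, with a median of 0.12. All of these calls were among the 17 genes above the low mode, beside 36.5% and 25.4% of all genes called higher and lower there. SLC1A4, a plasma membrane exchanger of serine, alanine and cysteine, was 4.59 times lower. It read 4.81, 4.86 and 4.85 in shATAD3A arrays, just above the low mode, against 6.92, 7.13 and 7.06 in shGFP arrays. The change was -2.20 ± 0.059 (SE; limma adjusted p = 4.11e-06), and an x_at probe set of SLC1A4 gave -1.77. With averaged probe sets SLC1A4 changed by -1.21. The only SLC1A4 probe set without an s_at or x_at mark lay in the low mode. SFXN2, of the sideroflexin family that holds the mitochondrial serine carrier SFXN1, read 8.78, 8.81 and 8.92 in shATAD3A arrays, against 7.98, 7.74 and 7.70 in shGFP arrays. It rose by 1.03 (limma adjusted p = 0.000213). The other SFXN2 probe set had overlapping groups and was not called, at 0.33 (limma adjusted p = 0.414 over probe sets), and with averaged probe sets SFXN2 rose by 0.68. SFXN1 itself was not called, at 0.19 (limma adjusted p = 0.108).

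SPTLC1, a subunit of the enzyme that condenses serine with palmitoyl-CoA to start sphingolipid synthesis, changed by -1.42 (limma adjusted p = 1.30e-05). The other SPTLC1 probe sets changed by -1.30 and -0.26 (limma adjusted p = 0.00196 and 0.0415 over probe sets). With averaged probe sets SPTLC1 changed by -0.99. The amino acid transporter SLC38A1 rose by 0.54 and SLC38A2 changed by -0.28. Their neighbours rose by 0.56 and 0.58 in the median, so SLC38A1 lay level with its surroundings (-0.021 with the median removed) and SLC38A2 well below (-0.87). SRR, which makes D-serine, rose by 0.35 on its brightest probe set and by 0.55 to 0.59 on the other 3, beside neighbours at 0.44. ALAS1, which joins glycine to succinyl-CoA to start haem synthesis, rose by 0.30, or 0.14 with its neighbours removed.

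Of 27 regulators and other ATF4 targets 8 rose and 7 fell, all of them among the 25 above the low mode, beside 36.5% and 25.4% of all genes called higher and lower there. The counts lie near those shares, and the median change of the list was 0.066, beside 0.065 for all genes above the low mode. ATF4 mRNA read 12.72, 12.76 and 12.79 in shATAD3A arrays and 12.93, 12.84 and 12.91 in shGFP arrays, a change of -0.14 ± 0.036 (SE; limma adjusted p = 0.026). The ATF4 call was lost under some other settings. Its limma adjusted p ran from 0.0274 to 0.0921 with each array left out, and up to 0.107 over all of them. It was named after its values were seen, because some of the members are its known targets, and its mRNA does not report its protein. SLC7A11, the cystine importer, rose by 1.41, VLDLR by 1.30, ATF3 by 1.14 and DDIT3, which encodes CHOP, by 1.01. ASNS, asparagine synthetase, changed by -0.93, and DDIT4 by -0.60. Of the 4 kinases that raise ATF4 translation, EIF2AK4 and EIF2AK1 changed by -0.67 and -0.62, while EIF2AK3 rose by 0.69 and EIF2AK2 by 0.23 (limma adjusted p = 1.57e-05 and 0.0167). EIF2AK3 and EIF2AK2 were named after their values were seen, and the EIF2AK2 call was lost with its neighbours removed (0.0579). For the other 8 genes, from SLC7A11 to EIF2AK1, the limma adjusted p lay from 5.88e-06 to 0.00236. The ATF3 and ASNS calls rest on s_at probe sets, and their other probe sets lay in the low mode; with averaged probe sets the changes were 0.38 and -0.47. Neighbours of DDIT3 had a median of 0.46, and DDIT3 still rose by 0.55 with it removed.

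**Figure D4:**
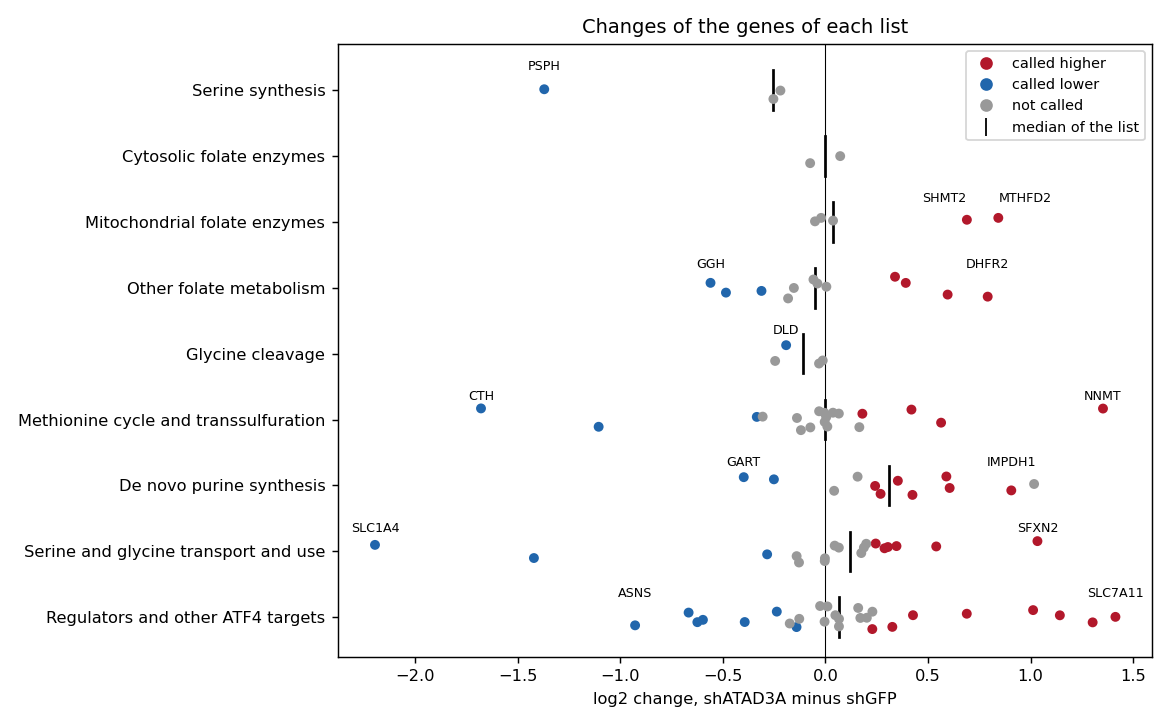
Log2 change of shATAD3A minus shGFP (horizontal) for each gene of the lists (rows), on the brightest probe set of the gene. Red and blue points passed the test upward and downward, grey ones did not, and black bars are list medians; called genes lie on both sides of 0 in the rows of folate, methionine, purine, serine transport and ATF4 genes.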

How the data were processed

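RNA of 6 samples, 3 shATAD3A and 3 shGFP, entered a biotin labelling reaction for 3' expression arrays in amounts of 250 ng, per the labels' protocols. The table deposited by the authors holds 1 value per probe set and array, which was read as log2 from its range of 0.826 to 16.6 and its shape. Array medians lay between 3.16 and 3.23. Per the submitters' processing notes, Partek was used (no version given); the summary method is not given in the sources used here. How the values were summarised and background-corrected sets how far low values are compressed, so changes of dim probe sets are uncertain.

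Of 54675 probe sets, 62 controls were set aside. Of the rest, 41091 had 1 gene symbol in the platform annotation, 1801 had several and 11721 had none. Genes were named from probe sets with 1 symbol; those with several were described by all their symbols. Promoter windows came from a RefSeq table on GRCh38.p14, and gene order from the GRCh38.p14 gene table. The files gave 0 unused columns, and no 2 arrays had more than 0.0165% of values in common.

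The fits used limma 3.58.1 in R 4.3.3 (lmFit and eBayes, two-sided, no covariates), over 19775 genes or 54613 probe sets, and were tested on simulated data. Pairs of paralogs were compared with exact permutation tests. Named were all members, ATAD3A, and from each list at most 4 called genes per direction, taken by size of change, with groups that did not overlap; PSPH was also given its 5 most similar genes. ATIC, ATF4, GLDC, CBS, SFXN1, EIF2AK2 and EIF2AK3 were added after their values were seen, as steps or regulators next to the members. The members and lists were chosen with earlier results of these data known. Alternatives covered normalization, filters on dim genes, how probe sets represent a gene, an intensity trend, array weights, the threshold, the replicate number as a block, each array left out and the median of neighbouring genes; 3' bias and detection calls were not analysed here.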

Additional observations from a re-analysis of the deposited data

How the results depend on the processing

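SHMT2, MTHFD2 and PSPH kept their direction and their call under all 18 other settings of the gene fit. The change ranged from 0.24 to 0.74 for SHMT2, from 0.66 to 0.86 for MTHFD2 and from -1.40 to -0.81 for PSPH. The number of members called higher was 2 under each of these settings. The number called lower, 1 in the fit reported, was 2 with arrays centred on their medians, with either filter on dim genes, with averaged probe sets, with an intensity trend, with array weights and with the replicate block. It was 1 to 2 when arrays were left out in turn and 3 with the median of neighbours above the low mode removed. The added gene was PSAT1, except under the replicate block, where it was PHGDH in the low mode (adjusted p = 0.0174), and with neighbours removed, where it was PSAT1 and MTHFD2L. The cause of these added calls was not tested. With the replicate block, 4 member probe sets were called lower in place of 2. Same-numbered arrays of both groups had correlations of -0.288, -0.205 and 0.072 in their deviations from the group means, so the numbers were not taken to pair the samples, and not every array correlated best with its own number.

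The SHMT2 and SHMT1 pair shifted by 0.46 with shared probe sets. The MTHFD1L and MTHFD1 pair shifted by 0.0087 with averaged and 0.053 with shared probe sets. The MTHFD2 and MTHFD2L pair shifted by 0.74 with averaged probe sets. Among the 36 named list genes, 586 of 604 values under settings other than the last neighbour one kept their direction and side of the threshold, 17 lost the call, and 1 reversed, DLD at 0.15 with averaged probe sets. With the median of neighbours above the low mode removed, 6 lost the call with their sign unchanged and 5 changed sign. Of these 5, MTRR (-0.042), PRPS2 (-0.074) and SLC38A1 (-0.021) also lost the call (limma adjusted p = 0.484, 0.464 and 0.569). PRPS1 (0.59) and SRR (-0.096) were called in the opposite direction (limma adjusted p = 0.00015 and 0.0448). What can be seen is limited by signal: 15 of 28 member probe sets lay in the low mode.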
